A study of Homo sapiens with 34 samples.

Results

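NKX2-5, NKX2-3, NKX2-6, NKX2-1, NKX2-2 and NKX1-2 are 6 members of the NKX family of homeobox transcription factors, and they make up 6 of the 23189 gene symbols in a table of read counts from differentiating human embryonic stem cells. They were taken from the table by symbol, each as the RefSeq accession with the largest total over the libraries used. H1, an established human embryonic stem cell line, was differentiated toward the cardiac lineage with the GSK3β inhibitor CHIR99021 followed by the Wnt inhibitor IWP2, and with insulin in the last days. RNA was sequenced at day 0 (undifferentiated cells), day 2 (mesendoderm), day 6 (cardiac progenitors) and day 10. The NKX2-5 shRNA, ZEB2 shRNA and ZNF503 shRNA lines were H1 cells infected with a lentiviral shRNA and selected with puromycin, and each line is the vector with the strongest knockdown among several tried. The cells called WT were also infected, with an shRNA against GFP or with an empty vector, and the labels do not say which WT library had which. Each of the 15 groups held 2 libraries, described as biological replicates, and the ZNF503 shRNA line had no day 10 group. At day 10 the WT and ZEB2 shRNA libraries are replicates 3 and 4 and the NKX2-5 shRNA libraries replicates 1 and 2. The shRNA and the set of replicates therefore cannot be told apart where NKX2-5 shRNA is compared with either at day 10. On earlier days all libraries are replicates 1 and 2. For WT and ZEB2 shRNA cells the step from day 6 to day 10 thus changes the set of replicates along with the day.

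NKX proteins bind DNA through a homeodomain, which is encoded by the homeobox. NKX2-5, the vertebrate counterpart of the fly gene tinman, is a core regulator of heart development. It acts with GATA, T-box and MEF2 factors on genes of the contractile apparatus and of conduction. NKX2-6 is expressed in the pharyngeal region and the early heart, and NKX2-3 in the mesoderm of the gut and spleen and in the pharynx. NKX2-1 is a regulator of the thyroid, lung and ventral forebrain, and NKX2-2 of the ventral neural tube and the endocrine pancreas. NKX1-2 is a gene of early stem zones near the primitive streak and tailbud.

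The homeoboxes of NKX2-3 and NKX1-2 are printed to show how far the coding sequences of the members can differ, since reads from shared stretches could be counted for either gene. They were read from the GRCh37 genome, 5′ to 3′ on the coding strand, and capitals mark the bases of NKX1-2 that differ from NKX2-3. The NKX2-3 homeobox lies on the plus strand at chr10:101294825-101295004, and that of NKX1-2 on the minus strand at chr10:126136265-126136444, each within exon 2 of 2.
NKX2-3: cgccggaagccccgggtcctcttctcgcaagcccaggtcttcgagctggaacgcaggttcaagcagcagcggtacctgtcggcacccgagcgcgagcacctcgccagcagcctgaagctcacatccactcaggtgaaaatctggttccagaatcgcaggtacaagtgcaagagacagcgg
NKX1-2: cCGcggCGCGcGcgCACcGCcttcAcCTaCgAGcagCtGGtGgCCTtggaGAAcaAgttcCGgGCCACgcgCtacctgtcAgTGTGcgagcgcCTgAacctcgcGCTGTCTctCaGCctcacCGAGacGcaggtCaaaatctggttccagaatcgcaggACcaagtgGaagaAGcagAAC

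NKX1-2 shared 111 of the 180 bases of the homeobox with NKX2-3 (61.7%). Set against NKX2-5, NKX2-3 shared 148 bases (82.2%) and NKX1-2 shared 103 (57.2%). NKX2-6 shared 158 bases (87.8%), NKX2-1 148 (82.2%) and NKX2-2 144 (80.0%). The longest run of identical bases that the transcript of another member shared with NKX2-5 was 38 bases, in NKX2-6. It was 30 bases in NKX2-1 and NKX2-2, 26 in NKX2-3 and 14 in NKX1-2. A read lying wholly within such a run could come from either gene, and the rest of each transcript held no longer match with NKX2-5. Runs shared among the other members and the length of the reads were not examined.

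The table held 41627 accessions, and libraries had between 9189943 and 90814577 counts (median 32191176), with the shallowest at day 10 (9189943 to 29549874). Levels are given as CPM, which are counts scaled by library size with TMM factors of all 30 libraries. Markers moved with the stages and lines. The summed CPM of 5 pluripotency markers lay between 2248 and 2633 in all lines at day 0. The summed CPM of 6 cardiac muscle markers at day 6 was 9393 to 11940 in WT, 5248 to 5597 in ZEB2 shRNA, 218 to 289 in ZNF503 shRNA and 53.9 to 69.7 in NKX2-5 shRNA libraries. The summed CPM of 4 endoderm markers at day 6 was 176 to 376 in WT, 195 to 309 in ZEB2 shRNA, 1563 to 1714 in ZNF503 shRNA and 1917 to 2060 in NKX2-5 shRNA libraries. The summed CPM of 4 mesendoderm markers at day 6 was 171.4 to 186.5 in ZEB2 shRNA against 12.5 to 13.5 in WT libraries. It was 14.4 to 19.1 in ZNF503 shRNA and 4.98 to 7.45 in NKX2-5 shRNA libraries. The part of these marker differences in the NKX levels was not tested. None of the markers of these lists was at 0 in any group of day 6. The other targeted genes also differed between lines. ZEB2 at day 6 was at 54.4 to 57.3 CPM in its own line, against 93.9 to 97.0 in WT, 20.5 to 20.6 in NKX2-5 shRNA and 10.99 to 12.7 in ZNF503 shRNA. ZNF503 at day 6 was at 0.61 to 0.65 CPM in its own line, against 8.73 to 9.31 in WT and 0.59 to 0.90 in NKX2-5 shRNA, while at day 2 its 0.99 to 1.76 CPM overlapped the 1.10 to 1.98 of WT.

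NKX2-5, the gene targeted in its own line and the member with the highest level, was barely detected until day 2 and rose in WT cells at the cardiac progenitor stage. The gene covers chr5:172659112-172662314 on the minus strand (GRCh37). At day 0 the WT libraries held 8 and 16 counts (0.212 and 0.417 CPM), and at day 2 they held 6 and 4 counts (0.194 and 0.247 CPM). At day 6 they held 1942 and 2097 counts (84.3 and 50.3 CPM), and at day 10 they held 2067 and 1563 counts (107 and 170 CPM). Both days thus lay far above days 0 and 2 in WT cells, and the libraries of day 10 were both above those of day 6. From day 2 to day 6 NKX2-5 rose by 8.27 on the log2 scale (SE 0.48, adjusted p = 3.1e-07), when 4.88% of all tested genes were called higher at 8-fold and 1% FDR. From day 6 to day 10 it rose by 1.06 (SE 0.26, adjusted p = 0.0061), past 5% FDR, as did 28.2% of genes, but not past 8-fold. Without WT day 6 replicate 2 that step was 0.71 with an adjusted p of 0.0559.

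In the NKX2-5 shRNA line the targeted gene stayed low throughout. It had 5 and 8 counts at day 0 (0.128 and 0.143 CPM), 6 and 0 counts at day 2 (0.105 and 0 CPM), and 27 and 38 counts at day 6 (0.995 and 0.761 CPM). At day 10 its libraries held 14 and 66 counts (0.673 and 3.14 CPM). All of these libraries were below the WT libraries of the same day. In 3 settings with 1 library left out, the rise of NKX2-5 from day 2 to day 6 within its own line (3.60, SE 1.02, adjusted p = 0.0208, past 5% FDR as 23.7% of genes were) no longer passed 5% FDR: without day 6 replicate 1 (3.48, adjusted p = 0.0725), day 6 replicate 2 (3.83, 0.0569) or day 2 replicate 2 (2.97, 0.0920). The rise itself differed from that in WT by -4.79 (SE 1.39, adjusted p = 0.0098), against 23.8% of genes with a difference in that direction at 5% FDR, and without NKX2-5 shRNA day 2 replicate 1 by -0.35 (adjusted p = 0.880).

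Against WT, NKX2-5 in its own line was lower at day 6, with a difference of -6.30 on the log2 scale (SE 0.30, adjusted p = 9.6e-09), at 1.30% of the WT mean (SD 0.25). The difference at day 10 was -6.17 (SE 0.69, adjusted p = 0.00080), at 1.38% of WT (SD 1.26). At day 10 that value ran from -7.66 without NKX2-5 shRNA replicate 2 to -5.45 without its replicate 1, and without WT day 10 replicate 4 it was -5.80 with an adjusted p of 0.0114. Past the thresholds of 8-fold and 1% FDR used for days 6 and 10, 3.42% of all tested genes were lower in this line at day 6 and 2.85% at day 10. At day 0 the difference was -1.22 (SE 0.79, adjusted p = 0.323) and did not pass, and at day 2 NKX2-5 had too few counts in every line to be tested. In these bulk libraries, fewer cells expressing a gene and less RNA per cell cannot be told apart.

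NKX2-5 was also low in ZNF503 shRNA cells at day 6, at 57 and 51 counts (2.91 and 2.07 CPM). Its difference from WT was -4.78 on the log2 scale (SE 0.28, adjusted p = 7.1e-08), at 3.70% of the WT mean (SD 0.88), and 2.91% of genes were called lower at 8-fold and 1% FDR. The ZNF503 shRNA libraries were both above those of the NKX2-5 shRNA line. The difference between these lines was -1.52 (NKX2-5 shRNA minus ZNF503 shRNA, SE 0.34, adjusted p = 0.0124), past 5% FDR, as were 8.81% of genes in that direction. It missed 5% FDR without NKX2-5 shRNA day 6 replicate 2 (-1.30, adjusted p = 0.0954) and without ZNF503 shRNA day 6 replicate 1 (-1.28, adjusted p = 0.142).

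ZEB2 shRNA cells kept NKX2-5 at a level much nearer to WT. Their libraries held 2234 and 472 counts at day 6 (37.1 and 35.0 CPM) and 1273 and 504 counts at day 10 (39.5 and 21.6 CPM). All 4 were below the WT libraries of the same day. The day 6 difference from WT was -0.89 (SE 0.22, adjusted p = 0.0198), at 53.5% of the WT mean (SD 2.21), and the day 10 difference was -2.18 (SE 0.56, adjusted p = 0.0359), at 22.0% (SD 9.13). Both passed 5% FDR, as did 5.33% of genes in that direction at day 6 and 7.67% at day 10, and neither passed 8-fold and 1% FDR. At day 6 the value ran from -1.22 to -0.47 when 1 library was left out, with adjusted p of 0.118 without ZEB2 shRNA replicate 1, 0.153 without ZEB2 shRNA replicate 2 and 0.246 without WT replicate 1. At day 10 the adjusted p lay between 0.110 and 0.231 whichever library was left out, with values from -2.67 to -1.80.

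At day 0, where NKX2-5 counts are close to the detection limit, ZEB2 shRNA libraries held 4 and 2 counts and ZNF503 shRNA libraries 4 and 0. Their differences from WT were -3.00 (SE 0.88, adjusted p = 0.0827) and -3.08 (SE 0.95, adjusted p = 0.0695) on the log2 scale, past the 2-fold and 10% FDR thresholds of that day. In those comparisons 0.781% and 1.24% of genes were called lower. The ZEB2 shRNA call was lost whichever library was left out, with adjusted p from 0.186 to 0.518. The ZNF503 shRNA call held without ZNF503 shRNA day 0 replicate 1 (-7.20, adjusted p = 0.0758), and was lost without its replicate 2 (-1.79, adjusted p = 0.368), WT replicate 1 (adjusted p = 0.180) or WT replicate 2 (adjusted p = 0.385). With the replicate number as a block the adjusted p was 0.135 for ZEB2 shRNA and 0.109 for ZNF503 shRNA cells, over 10% in both.

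**Figure D1:**
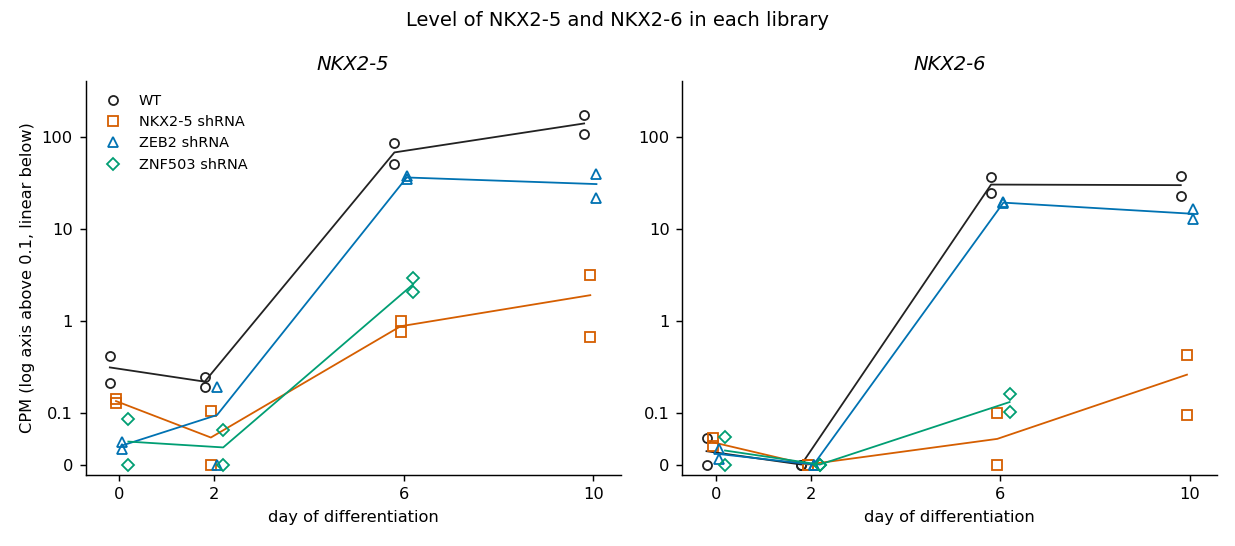
Level of NKX2-5 (left) and NKX2-6 (right) in CPM against day of differentiation, on an axis that is logarithmic above 0.1 and linear below. Each symbol is 1 library and each line joins the means of a cell line. At day 6 the WT and ZEB2 shRNA libraries lie between 35.0 and 84.3 CPM for NKX2-5 and the other lines at or below 2.91 CPM.

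The accession chosen for NKX2-5 counted almost the same reads as the gene's other accessions. In the 8 libraries with over 100 counts, NM_001166176 held 99.2% to 99.9% and NM_004387 92.1% to 95.5% of the counts of NM_001166175, so the transcript forms cannot be told apart in this table.

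NKX2-6 followed NKX2-5 closely, with a sharper contrast between day 2 and day 6. The gene covers chr8:23559253-23564269 on the minus strand. No library of day 2 held a count of NKX2-6, and at day 0 its counts ran from 0 to 4. At day 6 the WT libraries held 832 and 1009 counts (36.1 and 24.2 CPM) and at day 10 435 and 339 counts (22.6 and 36.9 CPM). The WT libraries of days 6 and 10 overlapped, and the step between these days was -0.01 (SE 0.29, adjusted p = 0.975). A count of 0 at day 2 makes the day 6 level in WT at least 475-fold higher, with a floor of 3 counts over the group, and the same bound in ZEB2 shRNA cells is at least 499-fold. Both bounds take each count as an independent fragment.

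At day 6 NKX2-6 had 0 and 5 counts in the NKX2-5 shRNA line (0 and 0.1001 CPM) and 2 and 4 counts in the ZNF503 shRNA line (0.102 and 0.162 CPM). The ZEB2 shRNA libraries held 1142 and 263 counts (18.95 and 19.5 CPM). NKX2-6 was thus near the detection limit in the first 2 lines and at 63.7% of the WT mean (SD 1.25) in the third. Its difference from WT was -8.80 on the log2 scale in NKX2-5 shRNA cells (SE 0.43, adjusted p = 1.2e-08), and -12.82 without NKX2-5 shRNA day 6 replicate 2, which held its counts. In ZNF503 shRNA cells it was -7.76 (SE 0.42, adjusted p = 4.2e-08). The ZEB2 shRNA difference was -0.65 (SE 0.24, adjusted p = 0.118), although both libraries lay below both WT libraries. Between the NKX2-5 and ZNF503 shRNA lines it was -1.03 (SE 0.95, adjusted p = 0.490).

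At day 10 NKX2-6 remained low in NKX2-5 shRNA cells, at 2 and 9 counts (0.0961 and 0.428 CPM). Its difference from WT was -6.78 (SE 0.58, adjusted p = 0.00032), and it ran from -8.16 to -6.08 when 1 library was left out. The ZEB2 shRNA libraries held 526 and 298 counts (16.3 and 12.8 CPM), both below WT, and their difference of -1.03 (SE 0.41) had an adjusted p of 0.125. The NKX2-5 shRNA line was also below the ZEB2 shRNA line, with a difference of -8.15 at day 6 (SE 0.44, adjusted p = 3.3e-08) and of -5.75 at day 10 (SE 0.57, adjusted p = 0.0018). Those comparisons called 3.52% and 1.19% of genes lower at 8-fold and 1% FDR. Without ZEB2 shRNA day 10 replicate 3 the day 10 difference had an adjusted p of 0.0148.

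NKX2-3 followed another course, and its order of WT and NKX2-5 shRNA cells turned between day 6 and day 10. The gene covers chr10:101292699-101296281 on the plus strand. No library of days 0 and 2 held more than 2 counts. At day 6 the WT libraries held 67 and 186 counts (2.91 and 4.46 CPM), and at day 10 they held 6 and 8 counts (0.311 and 0.871 CPM). In the NKX2-5 shRNA line the counts were 16 and 55 at day 6 (0.590 and 1.10 CPM) and 97 and 155 at day 10 (4.66 and 7.38 CPM). The WT level went down between these days while the NKX2-5 shRNA level went up. The libraries of the 2 lines did not overlap on either day. The WT libraries of day 10 come from another set of replicates than those of day 6, which cannot be told apart from the day. In the ZEB2 shRNA line the counts were 390 and 113 at day 6 (6.47 and 8.37 CPM) and 273 and 164 at day 10 (8.47 and 7.02 CPM), all above every WT library. The ZNF503 shRNA libraries of day 6 held 10 and 16 counts (0.511 and 0.650 CPM), below every WT library of that day.

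Against WT at day 6, NKX2-3 was lower in NKX2-5 shRNA cells, with a difference of -2.09 (SE 0.36, adjusted p = 0.00040), at 22.9% of WT (SD 9.81). For ZNF503 shRNA cells the difference was -2.67 (SE 0.41, adjusted p = 0.00016), at 15.7% (SD 2.66). Both passed 5% FDR, as did 24.7% and 28.5% of genes in that direction, without reaching 8-fold. In ZEB2 shRNA cells it was 0.98 higher (SE 0.32), with an adjusted p of 0.0745. At day 10 NKX2-3 was higher than in WT in both lines measured, by 3.48 in NKX2-5 shRNA (SE 0.56, adjusted p = 0.0030) and by 3.84 in ZEB2 shRNA cells (SE 0.57, adjusted p = 0.0061). The group means were 10.2 and 13.1 times the WT mean. Both passed 8-fold and 1% FDR, when 4.46% and 0.976% of genes were called higher. The 2 comparisons share the WT libraries, which held 6 and 8 counts. The NKX2-5 shRNA call was lost without WT replicate 3 (2.79) or WT replicate 4 (4.26). The ZEB2 shRNA call was lost whichever library was left out, as was every other call of that comparison. Its values then ran from 3.15 to 4.62.

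Within WT cells NKX2-3 fell by 2.80 on the log2 scale from day 6 to day 10 (SE 0.59, adjusted p = 0.0040), as 29.2% of genes did at 5% FDR. Within the NKX2-5 shRNA line it rose by 2.74 (SE 0.55, adjusted p = 0.0065), as 24.1% did, and without NKX2-5 shRNA day 6 replicate 1 this value was 2.41 with an adjusted p of 0.0527. In the ZEB2 shRNA line it stood still within its spread, at 0.07 (SE 0.26, adjusted p = 0.844). The difference between the changes in NKX2-5 shRNA and WT cells was 5.62 (SE 0.70, adjusted p = 0.00047), and 14.5% of genes had a difference in that direction at 5% FDR. For ZEB2 shRNA cells the same difference was 2.86 (SE 0.68, adjusted p = 0.0353), against 3.82% of genes. The lines themselves, which share no library, differed at day 6 by -3.07 (NKX2-5 shRNA minus ZEB2 shRNA, SE 0.36, adjusted p = 2.2e-05). At day 10 they differed by -0.36 (SE 0.45, adjusted p = 0.597). The set of replicates changes between day 6 and day 10 in WT and ZEB2 shRNA cells and not in NKX2-5 shRNA cells. At day 10 the summed endoderm markers were at 22370 to 33720 CPM in NKX2-5 shRNA, 5821 to 6931 in ZEB2 shRNA and 1307 to 3220 in WT libraries, and 5 blood markers were at 880 to 1015 CPM in NKX2-5 shRNA libraries against 9.21 to 11.6 and 10.8 to 39.8. The part of these other cell types in the NKX2-3 difference was not tested.

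**Figure D2:**
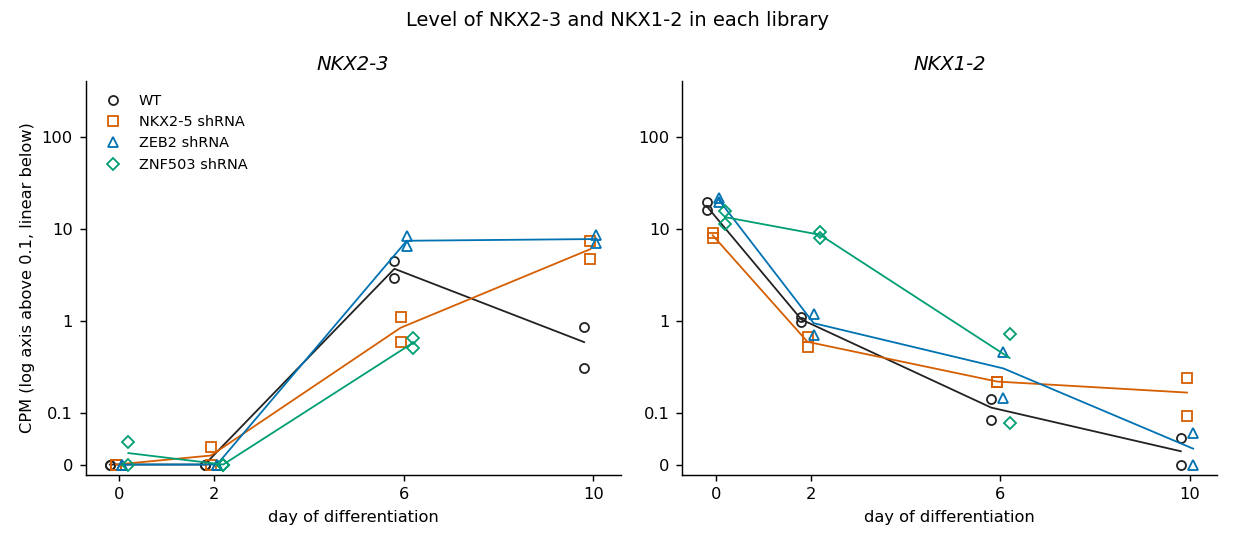
Level of NKX2-3 (left) and NKX1-2 (right) in CPM against day of differentiation, with the same axes and symbols as the plot of NKX2-5 and NKX2-6. NKX2-3 in WT cells drops below 1 CPM at day 10 while both shRNA lines lie between 4.66 and 8.47 CPM, and NKX1-2 at day 2 stays above 8 CPM in ZNF503 shRNA cells alone.

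NKX1-2 ran opposite to the cardiac members in time, being highest in undifferentiated cells. The gene covers chr10:126133812-126138604 on the minus strand, and 2323 of its bases are overlapped on the other strand by the antisense gene RP13-238F13.3. The strand setting of the counting is not given in the sources used here, so reads of the antisense gene cannot be told apart from those of NKX1-2. At day 0 the WT libraries held 732 and 613 counts (19.4 and 15.96 CPM), at day 2 30 and 18 (0.968 and 1.11 CPM), and at day 6 2 and 6. From day 0 to day 2 NKX1-2 fell by 4.07 on the log2 scale in WT cells (SE 0.28, adjusted p = 3.2e-06), when 3.1% of genes were called lower at 4-fold and 10% FDR. From day 2 to day 6 it fell by 3.03 (SE 0.44, adjusted p = 0.00027), when 3.46% of genes were called lower at 8-fold and 1% FDR.

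The ZNF503 shRNA line kept NKX1-2 at day 2. Its libraries held 697 and 816 counts at day 0 (15.6 and 11.2 CPM) and 827 and 178 counts at day 2 (9.21 and 8.04 CPM), each above the libraries of all other lines at day 2. The next highest library of day 2, in the ZEB2 shRNA line, stood at 1.18 CPM. Against WT the day 2 difference was 3.03 (SE 0.30, adjusted p = 3.6e-06), with the mean at 8.29 times that of WT, and 0.817% of genes were called higher at 4-fold and 10% FDR. It stayed between 2.91 and 3.12 under all 10 alternatives. Within the line the step from day 0 to day 2 was -0.59 (SE 0.28, adjusted p = 0.127), and that from day 2 to day 6 was -4.58 (SE 0.45, adjusted p = 4.5e-07), when 4.52% of genes were called lower. The summed pluripotency markers at day 2 were also higher in this line, at 1624 to 1722 CPM against 1010 to 1024 in WT, and 4 mesendoderm markers were lower, at 372 to 476 against 780 to 825. The part of the stage of these cells in the NKX1-2 difference was not tested.

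In the NKX2-5 shRNA line NKX1-2 was already lower at day 0, at 313 and 503 counts (8.04 and 8.98 CPM), below every library of the other lines. The difference from WT was -1.08 (SE 0.18, adjusted p = 0.0026), at 48.1% of WT (SD 3.74), when 1.4% of genes were called lower at 2-fold and 10% FDR. It was under 2-fold without NKX2-5 shRNA day 0 replicate 1 (-0.997) or WT day 0 replicate 1 (-0.93). The ZEB2 shRNA libraries stood at 19.8 and 21.5 CPM, with a difference of 0.20 (SE 0.17, adjusted p = 0.566), and those of ZNF503 shRNA had a difference of -0.41 (SE 0.17, adjusted p = 0.162). At day 2 NKX1-2 was at 0.527 and 0.663 CPM in NKX2-5 shRNA cells, a difference of -0.85 (SE 0.37, adjusted p = 0.0988) that did not reach 4-fold. At day 6 no NKX1-2 library exceeded 28 counts, and at day 10 none exceeded 5.

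NKX2-1 and NKX2-2 hardly appeared in this differentiation. NKX2-1 covers chr14:36985597-36990354 on the minus strand, where SFTA3 lies across the whole gene on the same strand and NKX2-1-AS1 across 1872 bases on the other, so its few counts may be shared. It had counts in 4 of 30 libraries, all of day 6: 26 and 18 in WT (1.13 and 0.432 CPM) and 43 and 2 in ZEB2 shRNA cells (0.714 and 0.148 CPM). The WT and ZEB2 shRNA libraries overlapped. In both other lines NKX2-1 was at 0 at day 6, at least 20.05-fold lower than in WT for NKX2-5 shRNA and at least 11.5-fold lower for ZNF503 shRNA cells, with a floor of 3 counts over each group. The quasi-likelihood test gave adjusted p-values of 0.0022 and 0.0052. The NKX2-5 shRNA call missed 1% FDR without NKX2-5 shRNA replicate 2 (adjusted p = 0.0194) or WT replicate 1 (adjusted p = 0.0111), and the ZNF503 shRNA call without ZNF503 shRNA replicate 1 (adjusted p = 0.0379), its replicate 2 (adjusted p = 0.0404) or WT replicate 1 (adjusted p = 0.0228). NKX2-2, at chr20:21491655-21494702 on the minus strand, never exceeded 8 counts and had any count in 14 of 30 libraries. It passed the filter on low counts in no comparison and no fold is given. NKX2-2-AS1 overlaps 863 of its bases on the other strand.

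**Figure D3:**
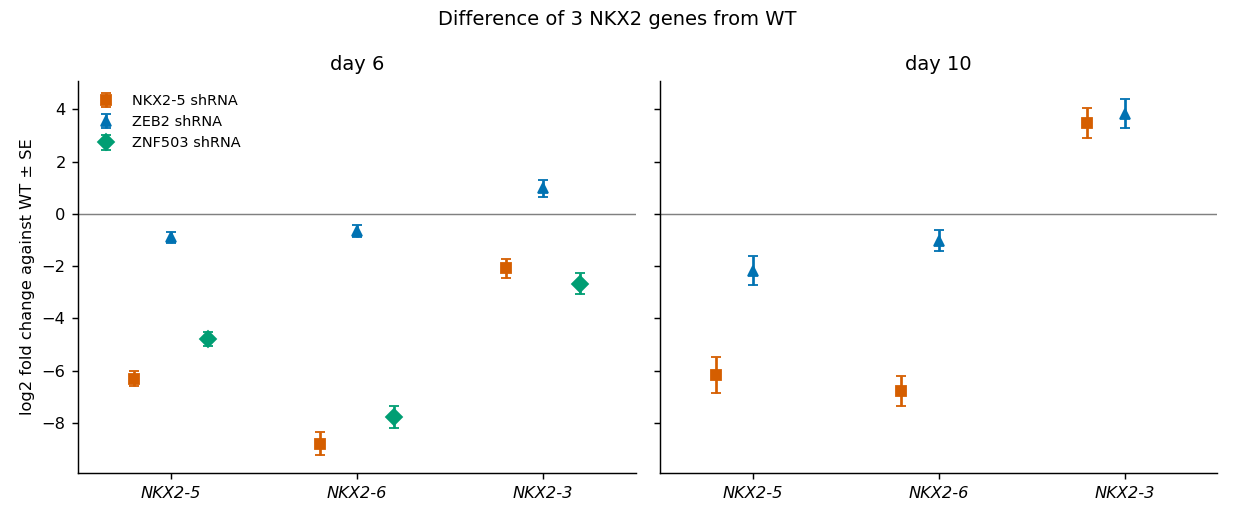
Log2 fold change against WT of NKX2-5, NKX2-6 and NKX2-3 at day 6 (left) and day 10 (right), with bars of 1 SE from the quasi-likelihood fit of that day. NKX2-3 lies below 0 in NKX2-5 shRNA cells at day 6 (-2.09) and above 0 at day 10 (3.48).

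The groups can be put in order by the mean level of each member. For NKX2-5 the order was WT day 10 (139 CPM), WT day 6 (67.3), ZEB2 shRNA day 6 (36.0) and day 10 (30.5), then ZNF503 shRNA day 6 (2.49), NKX2-5 shRNA day 10 (1.91) and day 6 (0.878). The libraries of the ZEB2 shRNA groups overlapped, as did those of ZNF503 shRNA day 6 with NKX2-5 shRNA day 10, and those of the NKX2-5 shRNA groups of days 10 and 6. For NKX2-6, WT day 6 (30.2 CPM) and day 10 (29.7) overlapped and lay above ZEB2 shRNA day 6 (19.2) and day 10 (14.5). For NKX2-3, ZEB2 shRNA day 10 (7.75 CPM) and day 6 (7.42) and NKX2-5 shRNA day 10 (6.02) overlapped each with the next and lay above WT day 6 (3.69). For NKX1-2 the day 0 groups led in the order ZEB2 shRNA (20.6 CPM), WT (17.7) and ZNF503 shRNA (13.4), with no overlap between neighbours, followed by ZNF503 shRNA day 2 (8.62) and NKX2-5 shRNA day 0 (8.51), which overlapped.

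Levels of different members were compared only per kb of transcript. The length was that of the reference transcript annotated for each gene, which need not be the form counted. In WT cells of day 6 NKX2-5 stood at 43.2 CPM per kb and NKX2-6 at 17.0, and at day 10 NKX2-5 stood at 89.0 and NKX2-6 at 16.8. The level per kb of NKX2-6 was 37.6% and 42.2% of that of NKX2-5 in the WT libraries of day 6 and 18.5% and 19.04% in those of day 10. In ZEB2 shRNA cells the same share was 44.9% and 48.9% at day 6 and 36.3% and 51.9% at day 10. The shares in ZEB2 shRNA libraries of day 10 thus lay above both WT libraries of that day. For NKX2-3 the share was 2.57% and 6.62% in WT at day 6 and 0.217% and 0.382% at day 10. In ZEB2 shRNA cells it was 13.0% and 17.9% at day 6 and 16% and 24.3% at day 10, above every WT library. In the lines with little NKX2-5 a ratio was taken where a library held over 20 counts of it. There the share of NKX2-3 was 44.2% and 108% in NKX2-5 shRNA cells at day 6, 175% in replicate 2 at day 10, and 13.1% and 23.4% in ZNF503 shRNA cells at day 6. The share of NKX2-6 in the same libraries was 0%, 11.6%, 12.0%, 3.08% and 6.88%, on at most 9 counts.

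**Figure D4:**
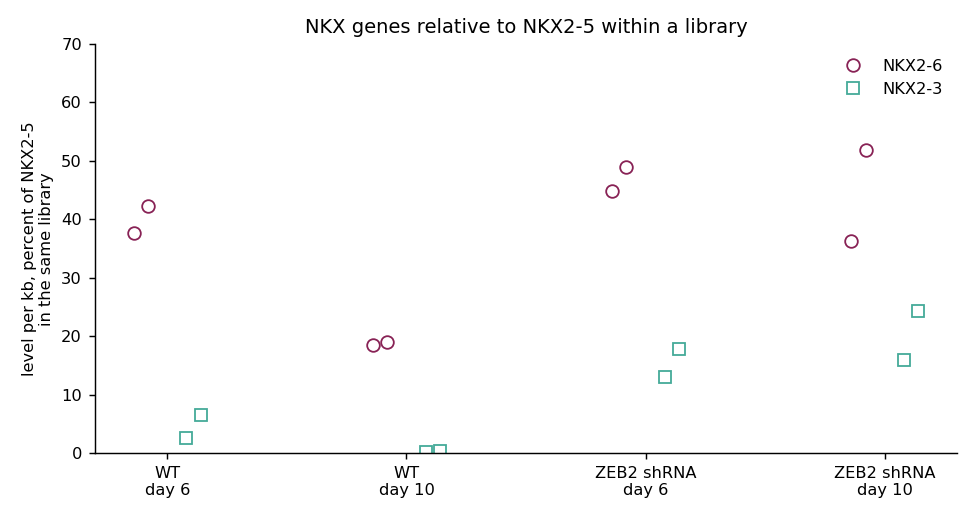
Level per kb of NKX2-6 and NKX2-3 as a percent of that of NKX2-5 in the same library, for the WT and ZEB2 shRNA libraries of days 6 and 10, where each symbol is 1 library. Between day 6 and day 10 the share of NKX2-6 goes from 37.6% and 42.2% to 18.5% and 19.04% in WT libraries, and in ZEB2 shRNA libraries of day 10 it is 36.3% and 51.9%.

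Among further NKX family genes, 6 are given here by their highest count in a library, which was 54 for NKX6-2, 38 for NKX3-2, 34 for NKX2-8, 11 for NKX2-4, 9 for NKX6-1 and 4 for NKX6-3.

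The genes most like each member were ranked by Pearson's r of log2(CPM + 1) over the 30 libraries, among 18480 other genes. The values are a description, since libraries of a day share their stage and lines. For NKX2-5 the leading genes were XIRP1 (0.995), POPDC2 (0.990), SMYD1 (0.990) and TNNT2 (0.990), all genes of striated or cardiac muscle, and ISL1-DT (0.988). NKX2-6 ranked 19 (0.978) for NKX2-5. Over the 22 libraries of the other lines, without the NKX2-5 shRNA line, XIRP1 (0.995), MYH7 (0.994) and ENO3 (0.993) led and NKX2-6 ranked 22 (0.982). For NKX2-6 the leading genes were TRIM55 (0.993), CSRP3 (0.988), MIR208A (0.988), SYNPO2L (0.987) and GRIK1 (0.986), and NKX2-5 ranked 15. The genes nearest to NKX2-3 were FOXF2 (0.959), a forkhead factor of gut and craniofacial mesenchyme, ATP6V0D2 (0.947) and SOST (0.943). For NKX1-2 they were HAS3 (0.984), CAMKV (0.977) and TNMD (0.976). NKX2-1 and NKX2-2 reached a mean of 1 CPM in no group and were not ranked.

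Transcription factors that act with NKX2-5 in the heart fell with it only in part. Of 16 such factors, all of which were tested at day 6, 7 were called lower in NKX2-5 shRNA and 6 in ZNF503 shRNA cells at 8-fold and 1% FDR, as were 3.42% and 2.91% of all genes, and none was called higher. In NKX2-5 shRNA cells the 7 were TBX2, TBX5, TBX20, MEF2C, HAND2, ISL1 and MYOCD. The medians of the log2 fold change over the list were -2.16 and -2.05, against 0.00 and -0.03 over all genes. MYOCD, a coactivator of muscle genes, differed by -6.58 in NKX2-5 shRNA (SE 0.21, adjusted p = 6.0e-10) and -5.69 in ZNF503 shRNA cells (SE 0.21, adjusted p = 1.9e-09). TBX5, a T-box factor of the heart and forelimb, differed by -6.49 and -4.80. ISL1, a LIM-homeodomain factor of the second heart field, differed by -5.58 and -3.98. By contrast GATA4, the zinc finger partner of NKX2-5, was higher by 0.54 (SE 0.12, adjusted p = 0.0030) and 0.82 (SE 0.12, adjusted p = 0.00015), and GATA6 by 0.69 and 1.04, past 5% FDR as were 24.4% and 27.2% of genes in that direction. The T-box repressor TBX3 was higher by 1.74 and 1.93. These comparisons share the WT libraries.

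No partner factor was called at 8-fold and 1% FDR in ZEB2 shRNA cells at day 6 (0.462% of all genes) or at day 10 (1.46%). At 5% FDR and day 6, 4 were lower and 2 higher (5.33% and 5.67% of all genes), with a median of -0.24 over the list. MEF2C, a MADS-box factor of muscle, differed by -1.84 (SE 0.20, adjusted p = 7.5e-05) and HOPX, an atypical homeodomain protein, by -2.01 (SE 0.34, adjusted p = 0.0021). HAND1, a factor of the left ventricle, differed by 0.83 in this line (SE 0.16, adjusted p = 0.0054) and by -1.64 in NKX2-5 shRNA cells (SE 0.17, adjusted p = 5.8e-06). At day 10, 7 of the 16 factors were called lower in NKX2-5 shRNA cells (2.85% of all genes). IRX4, a ventricular homeobox factor, was among them with a difference of -5.68 (SE 0.49, adjusted p = 0.00033), whereas at day 6 its difference was 0.20 (SE 0.26, adjusted p = 0.554).

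Most of the heart genes listed as downstream of NKX2-5 were lower at day 6 in the lines where NKX2-5 itself was low. Of 18 tested of 19, 14 were called lower in NKX2-5 shRNA and 11 in ZNF503 shRNA cells (3.42% and 2.91% of all genes), with medians of -6.01 and -4.24. None passed 8-fold and 1% FDR in ZEB2 shRNA cells, where 12 were lower and 1 higher at 5% FDR (5.33% and 5.67% of all genes), and the median was -0.89. MYH6, the alpha myosin heavy chain, differed by -12.96 in NKX2-5 shRNA (SE 0.32, adjusted p = 1.1e-10), -8.63 in ZNF503 shRNA (SE 0.26, adjusted p = 4.7e-10) and -1.09 in ZEB2 shRNA cells (SE 0.18, adjusted p = 0.0019). CSRP3, a Z-disc protein, differed by -10.50, -5.79 and -0.70 in the same order. NPPA, the atrial natriuretic peptide, differed by -3.51 in NKX2-5 shRNA (SE 0.66, adjusted p = 0.00080) and -4.25 in ZNF503 shRNA cells (SE 0.83, adjusted p = 0.00097). NPPB, the gene of the related B-type peptide, went the other way and was higher in all 3 lines (NKX2-5, then ZNF503, then ZEB2 shRNA), by 0.88 (SE 0.19, adjusted p = 0.0021), 1.92 (SE 0.19, adjusted p = 6.1e-06) and 0.89 (SE 0.19, adjusted p = 0.0095). Of this list 3 genes (TNNT2, MYH6 and MYL7) are also among the 6 cardiac muscle markers, whose sum moved with the same lines. XIRP1, POPDC2 and TNNT2 also ranked among the genes most like NKX2-5 over these same libraries. MYH6 and MYH7 did so without the NKX2-5 shRNA line. The like course of these genes follows from that ranking and is no separate evidence. The part of the number of muscle cells in these differences was not tested.

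At day 10, 13 downstream genes were called lower and 1 higher in NKX2-5 shRNA cells (2.85% and 4.46% of all genes), with a median of -5.18. The count called lower fell without WT day 10 replicate 3 or replicate 4, as did the number of calls over all genes. GJA5, a connexin of the atria and conduction system, was the gene called higher, by 3.27 (SE 0.50, adjusted p = 0.0023), and its difference at day 6 was 0.39 (SE 0.57, adjusted p = 0.599). A single gene, SMPX, a small protein of striated muscle, was called lower in ZEB2 shRNA cells at day 10, with a difference of -3.01 (SE 0.40, adjusted p = 0.0043). In that comparison 0.482% of genes were called lower, and every call, that of SMPX among them, was lost whichever library was left out. The median of the list in this line was -1.73, and 8 genes were lower and 1 higher at 5% FDR (7.67% and 10.6% of all genes).

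**Figure D5:**
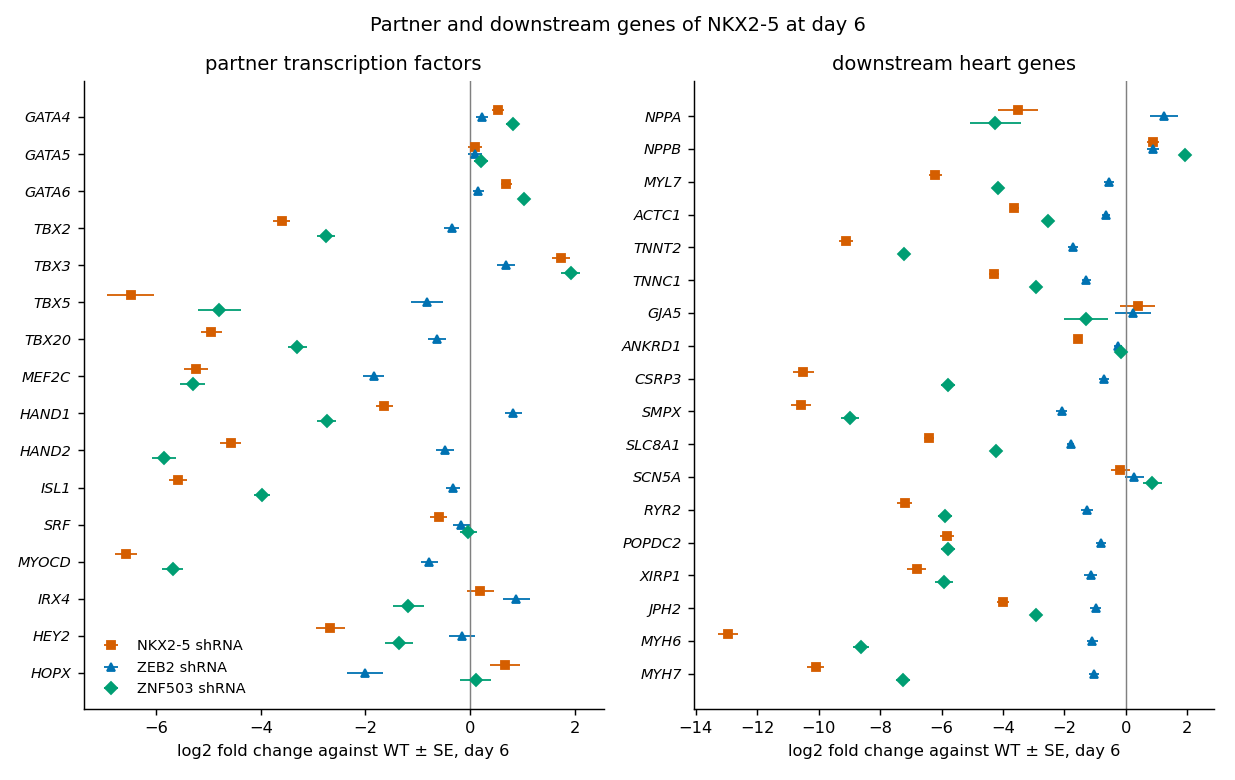
Log2 fold change against WT at day 6, with bars of 1 SE, for 16 partner transcription factors (left) and 18 tested downstream heart genes (right) in the 3 shRNA lines. GATA4, GATA6 and TBX3 lie above 0 in all 3 lines while MYOCD reaches -6.58 and MYH6 reaches -12.96 in NKX2-5 shRNA cells.

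A few of the signals and factors that act before NKX2-5, MESP1 and MESP2 among them, were lower than in WT at day 2 in NKX2-5 shRNA and ZNF503 shRNA cells. Of 10 tested of 11 at day 2, 2 were called lower at 4-fold and 10% FDR in NKX2-5 shRNA and 3 in ZNF503 shRNA cells, and in ZEB2 shRNA cells none passed that threshold (0.133% of genes did) or 5% FDR (0.49%). In NKX2-5 shRNA cells 0.708% of all genes were called lower, in ZNF503 shRNA cells 1.99%. MESP1, a basic helix-loop-helix factor of the earliest cardiovascular mesoderm, differed by -4.73 in NKX2-5 shRNA (SE 0.34, adjusted p = 1.2e-06) and -3.57 in ZNF503 shRNA cells (SE 0.30, adjusted p = 7.0e-07). MESP2, its relative, differed by -2.44 (SE 0.40, adjusted p = 0.00064) and -2.16 (SE 0.39, adjusted p = 0.00085). BMP2, a ligand that promotes cardiac specification, differed by -2.41 in ZNF503 shRNA cells (SE 0.16, adjusted p = 5.2e-08). At day 6, FGF8 and FGF10, growth factors of the second heart field, were called lower in both of these lines. The differences were -6.14 and -5.40 in NKX2-5 shRNA cells and -4.85 and -4.96 in ZNF503 shRNA cells. At 8-fold and 1% FDR, 3.42% and 2.91% of all genes were called lower. These genes were picked from the list, and its other genes at day 6 are not given here.

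The genes listed for visceral mesoderm and spleen, where NKX2-3 is known to act, were higher in part at day 10. Of 7 tested of 8, 1 was called higher in NKX2-5 shRNA cells and none in ZEB2 shRNA cells at 8-fold and 1% FDR (4.46% and 0.976% of all genes). At 5% FDR 4 and 5 were higher, as were 23.3% and 10.6% of genes. The medians were 2.11 and 2.15. FOXF1, a forkhead factor of the visceral mesoderm, was 4.38 higher in NKX2-5 shRNA (SE 0.37, adjusted p = 0.00032) and 2.43 higher in ZEB2 shRNA cells (SE 0.36, adjusted p = 0.0062). FOXF2, the gene nearest to NKX2-3 in pattern, was 2.14 higher (SE 0.57, adjusted p = 0.0205) and 2.15 higher (SE 0.57, adjusted p = 0.0403). Like NKX2-3, FOXF2 had been lower than in WT at day 6 in NKX2-5 shRNA (-3.17, SE 0.33, adjusted p = 6.5e-06) and ZNF503 shRNA cells (-5.45, SE 0.45, adjusted p = 1.2e-06). FOXF2 was ranked nearest to NKX2-3 over these same libraries, so its like course follows from that ranking and is no separate evidence. TLX1, a homeobox gene required for the spleen, was 3.61 higher in ZEB2 shRNA cells (SE 1.01, adjusted p = 0.0469). In that line FOXF2 and TLX1 passed 5% FDR narrowly, and their values with 1 library left out are not given.

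Some genes listed for the foregut and pharyngeal endoderm, another domain of NKX2 genes, were also higher at day 10. Of 8 tested of 10, 4 were called higher in NKX2-5 shRNA and 1 in ZEB2 shRNA cells at 8-fold and 1% FDR (4.46% and 0.976% of all genes), and 6 in each at 5% FDR (23.3% and 10.6%), with medians of 3.94 and 2.79. The genes called in NKX2-5 shRNA cells included FOXA1, FOXA2 and CDX2. The gene called in the ZEB2 shRNA line was CDX2, on this list although an intestinal homeobox factor, which was higher by 3.43 (SE 0.40, adjusted p = 0.0033). That call was lost whichever library was left out, as was every other call of that comparison. FOXA2, a pioneer factor of endoderm that is also among the 4 endoderm markers above, was 4.58 higher in NKX2-5 shRNA cells (SE 0.43, adjusted p = 0.00045). NKX2-1, which is known from the foregut, was at 0 in all libraries of day 10. Of 8 thyroid and lung genes 3 were tested at day 10, and TG, the thyroglobulin gene, was called higher in NKX2-5 shRNA cells.

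Among genes of the primitive streak and tailbud, where NKX1-2 is known, the ZNF503 shRNA line differed from WT in the opposite direction to NKX1-2. At day 2, 2 of 8 tested were called lower at 4-fold and 10% FDR (1.99% of all genes). At 5% FDR 7 were lower and none higher (13.8% and 13.1% of all genes), and the median was -1.44. CYP26A1, which breaks down retinoic acid, differed by -2.93 (SE 0.13, adjusted p = 2.0e-09) and TBX6, a T-box factor of paraxial mesoderm, by -2.40 (SE 0.20, adjusted p = 8.6e-07). TBXT, the brachyury gene, differed by -0.64 (SE 0.16, adjusted p = 0.0075). In NKX2-5 shRNA cells 4 of these genes were lower at 5% FDR (13.6% of all), among them WNT3A with a difference of -1.34 (SE 0.28, adjusted p = 0.0033). None passed 5% FDR in ZEB2 shRNA cells (0.49% of all genes did), or 4-fold and 10% FDR (0.133%).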

How the data were processed

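Total RNA was sequenced from H1 cells as strand-marking paired-end libraries. According to the study's methods, the authors aligned reads to hg19 with TopHat2 2.0.14 (Bowtie2 2.2.1.0 and SAMtools 0.1.19.0 per the labels) and counted them per RefSeq gene with RSeQC. The strand setting of the counting is not given in the sources used here. The deposited values are raw read counts for 41627 accessions, of which 40285 (96.8%, 97.1% of counts) matched a symbol. Of the libraries in the table, 4 (WT and ZEB2 shRNA day 10, replicates 1 and 2) hold 42704 values and are out of step with the accessions, so they were not used.

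Each gene was taken as its accession with the largest total. Libraries of a day (against WT, between lines) or of a line (over time) were fitted together with edgeR 4.0.16 in R 4.3.3 (TMM scaling, filterByExpr, quasi-likelihood test, Benjamini-Hochberg adjustment over all genes tested). SE was taken as the size of the log2 fold change over √F. Thresholds after the study's methods were 2-fold and 10% FDR at day 0, 4-fold and 10% at day 2, and 8-fold and 1% at days 6 and 10, with 5% FDR beside them. Levels below 3 counts over a group were read as a floor, for counting error only. Between 57.5% and 62.7% of the counts of 1 to 20 in a library were even, so mates may be counted separately. In that case a floor of 3 counts is too low, and the folds given as at least a value would be smaller.

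The members and lists were chosen with earlier results of these data known. Members were always named; of the lists, the gene with the largest change in each direction and up to 4 partner and downstream genes were named by rule, and other list genes were named after their values were seen. Alternatives were DESeq2 1.42.0, library totals, no filter, a replicate block, added accessions, 1 fit of all libraries and leaving out each library. Scripts were tested on simulated data. A few list genes and sequences are not reported here.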

Additional observations from a re-analysis of the deposited data

Results flagged for a closer look

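The change of NKX2-5 from day 2 to day 6 differed between NKX2-5 shRNA and WT cells by -4.79 on the log2 scale (SE 1.39, adjusted p = 0.0098), when 23.8% of genes had a difference in that direction at 5% FDR. It rests on the few counts of day 2, and without NKX2-5 shRNA day 2 replicate 1 it was -0.35 with an adjusted p of 0.880.

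The change of NKX2-3 from day 6 to day 10 differed between NKX2-5 shRNA and WT cells by 5.62 (SE 0.70, adjusted p = 0.00047). It lay between 4.87 and 6.33 when 1 library was left out, with adjusted p of at most 0.0034. The same change differed between ZEB2 shRNA and WT cells by 2.86 (SE 0.68, adjusted p = 0.0353), when 3.82% of genes had a difference in that direction at 5% FDR. That difference missed 5% FDR without ZEB2 shRNA day 10 replicate 3 (2.70, adjusted p = 0.121) or 4 (2.98, 0.0985), ZEB2 shRNA day 6 replicate 1 (2.66, 0.136) or 2 (3.07, 0.0962), WT day 6 replicate 2 (2.52, 0.148) or WT day 10 replicate 3 (2.19, 0.117). Both comparisons share the WT libraries. The set of replicates in WT cells changes between day 6 and day 10, so the day and the set cannot be told apart there.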

How the results depend on the processing

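Of the comparisons of members with WT, 273 alternative values kept their direction and side of the 5% FDR threshold, 8 gained significance, 11 lost it and 3 changed sign; of the other comparisons of members the counts were 607, 7, 31 and 24. The cause was not tested. With 1 fit of all libraries NKX1-2 in NKX2-5 shRNA cells at day 0 was -1.05 (adjusted p = 0.0711), NKX2-5 in ZEB2 shRNA cells at day 6 -0.90 (0.211), NKX2-6 there at day 10 -1.02 (0.0332) and NKX1-2 between ZEB2 and ZNF503 shRNA cells at day 6 0.035. Without a filter NKX2-3 in ZEB2 shRNA cells at day 6 was 0.97 (0.0129) and NKX2-6 -0.65 (0.0171). By DESeq2 NKX2-6 in ZEB2 shRNA cells at day 10 was -1.05 (0.0479). NKX2-5 there was -2.01 (0.0530) by library totals and -2.19 (0.0577) with accessions added up.

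With 1 library left out, the range against WT for ZEB2 shRNA cells was -0.55 to 0.18 for NKX1-2 at day 2, and at day 6 -1.22 to -0.47 for NKX2-5, -0.91 to -0.32 for NKX2-6 and -2.29 to 0.27 for NKX2-1; at day 10 it was -2.67 to -1.80 for NKX2-5. NKX1-2 in ZNF503 shRNA cells at day 6 ran from -0.57 to 2.499. From day 0 to day 2 NKX2-5 ran from -0.94 to 0.022 in WT, -3.91 to 2.21 in ZEB2 shRNA and -3.50 to 4.32 in ZNF503 shRNA cells, all on a few counts. From day 6 to day 10 NKX2-6 in WT ran from -0.41 to 0.31, NKX2-5 from -0.39 to 1.84 in NKX2-5 shRNA and -0.78 to 0.086 in ZEB2 shRNA cells, NKX1-2 in NKX2-5 shRNA cells from -1.21 to 0.093 and NKX2-3 in ZEB2 shRNA cells from -0.15 to 0.22. At day 6 NKX1-2 ran from -1.08 to 0.54 (NKX2-5 minus ZEB2 shRNA), -1.67 to 1.40 (NKX2-5 minus ZNF503 shRNA) and -1.30 to 2.13 (ZEB2 minus ZNF503 shRNA). The NKX2-5 change from day 2 to day 6 minus that of WT ran from -0.75 to 5.07 in ZEB2 shRNA and -3.13 to 1.06 in ZNF503 shRNA cells. From day 6 to day 10 that difference was -1.35 to 0.87 for NKX2-5 in NKX2-5 shRNA and -0.73 to 0.037 for NKX2-6 in ZEB2 shRNA cells.

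Same-numbered replicates correlated between -0.28 and 0.39. At day 2 all 6 correlations were above 0 (0.0081 to 0.39), but on no day were all above 0.1, and the numbers were not taken to pair the samples. With the replicate block NKX2-3 in ZEB2 shRNA cells was 1.04 at day 6 (adjusted p = 0.0307) and NKX2-6 at day 10 was -0.98 (0.0283). The block could not be fitted for NKX2-5 shRNA against WT at day 10 or for steps of WT and ZEB2 shRNA cells from day 6 to day 10. In a separate fit of the ZEB2 shRNA and WT libraries of day 10 alone (16496 genes tested), 512 genes were called without a block, 478 with it and 562 with the numbers crossed, an alternative chosen after seeing the data. In the fit of all day 10 libraries that the report uses, 248 genes were called in that comparison, and the count was 435 by DESeq2, 578 in 1 fit of all libraries and 0 without any 1 library, when 404 to 884 genes passed 5% FDR. For NKX2-5 shRNA at day 10 it was 1243, and 572 or 398 without WT replicate 3 or 4. At day 0 the counts of 372 (ZEB2 shRNA) and 433 (ZNF503 shRNA) were as low as 166 and 119 without 1 library, and 681 (NKX2-5 shRNA) was 436. By DESeq2 197 genes for NKX2-5 shRNA at day 2 were 120. For ZEB2 shRNA, 22 genes at day 2 were 13 to 41, and 76 at day 6 were 49 without 1 library. Library totals moved the median of all genes to 0.208 for ZEB2 shRNA at day 10 and to -0.13 for NKX2-5 shRNA at day 2, and the share of higher calls at 5% FDR from 57.9% to 73.3% and from 48.9% to 25.8%. With 2 libraries a group and few counts at days 0 and 2 for most members, NKX1-2 apart, small differences there could not be detected.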
